A study of Homo sapiens with 4 samples.

Results

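The 4 human HOX clusters were followed CpG by CpG in enzymatic methyl sequencing (EM-seq) libraries of HEK293T cells, a line derived from human embryonic kidney. Members were all CpGs listed in 4 fixed windows, which cover chromosome 7 from 27130000 to 27260000 (HOXA), chromosome 17 from 46600000 to 46810000 (HOXB), chromosome 12 from 54330000 to 54455000 (HOXC) and chromosome 2 from 176940000 to 177060000 (HOXD) in GRCh37 (hg19). They held 17102 CpGs of the 27710999 listed on autosomes and X, namely 4425 in HOXA, 4997 in HOXB, 3589 in HOXC and 4091 in HOXD. These are 17102 of the 17104 CpGs in the reference sequence of the windows. The rule uses positions only, and it was set with earlier results of these data known.

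The study compared wild-type cells (WT) with cells in which ZNF274 was deleted (ZNF274KO), with 2 libraries in each group, to see what ZNF274, a KRAB zinc finger protein, does to clustered genes. Per the methods, the knockout was made with a pair of guides flanking the gene, and transfected cells were sorted singly, so a knockout line descends from 1 cell, and which line gave which library is not given in the sources used here. The labels do not say whether the 2 libraries of a group came from separate cultures, so p-values measure only the spread between these libraries. In EM-seq, enzymes convert unmethylated cytosine so that it is read as T, while methylated cytosine is still read as C, and the methylation level (mCG) is the share of reads with C at a CpG, in percent.

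HOX genes encode homeodomain transcription factors that set the identity of segments along the head-to-tail axis. They lie in 4 clusters that arose by duplication, and genes with the same number in different clusters are paralogs. Genes with low numbers act in anterior parts of the embryo and those with high numbers in posterior parts, limbs and the urogenital tract. In cells that do not use them, CpG-rich HOX promoters are classically held by Polycomb proteins with little DNA methylation, and in many cell lines and tumours some of them carry dense DNA methylation instead.

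The ZNF274 gene itself (chromosome 19, 58694396 to 58724928) held 5158 and 4274 reads over its 501 CpGs in WT, against 0 in ZNF274KO 1 and 14 in ZNF274KO 2. Base calls at CpGs of autosomes and X, C and T together, numbered 241598512 to 295114493 per library. The median was 8 to 10 reads per CpG, and genome-wide mCG lay between 58.4% and 60.4%. Read numbers of regions, here and below, are sums of these base calls over the CpGs of the region. The same read can thus enter a sum more than once, and separate reads are fewer. Within the clusters, 17033 of the 17102 CpGs had reads in every library.

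Sequence stretches of 4 promoters show what was measured. They are the promoters with the highest and the lowest mCG in WT (HOXD10 and HOXD11), and those with the largest difference between the groups upwards (HOXA6) and downwards (HOXD1). Each is the 250 bases just before the start of the canonical transcript, read 5′ to 3′ on the strand of the gene from GRCh37, with every CpG in capitals.
HOXD10, chr2:176981256-176981505, plus strand: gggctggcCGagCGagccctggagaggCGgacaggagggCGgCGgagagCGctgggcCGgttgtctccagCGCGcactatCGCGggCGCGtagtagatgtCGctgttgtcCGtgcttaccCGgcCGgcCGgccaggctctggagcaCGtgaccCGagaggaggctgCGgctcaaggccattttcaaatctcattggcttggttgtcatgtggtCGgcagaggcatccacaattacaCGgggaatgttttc
HOXD11, chr2:176971758-176972007, plus strand: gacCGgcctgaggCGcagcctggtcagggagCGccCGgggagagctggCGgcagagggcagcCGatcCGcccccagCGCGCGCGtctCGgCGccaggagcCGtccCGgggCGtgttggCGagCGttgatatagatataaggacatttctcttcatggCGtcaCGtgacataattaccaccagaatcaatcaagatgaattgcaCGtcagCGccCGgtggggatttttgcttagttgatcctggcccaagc
HOXA6, chr7:27187394-27187643, minus strand: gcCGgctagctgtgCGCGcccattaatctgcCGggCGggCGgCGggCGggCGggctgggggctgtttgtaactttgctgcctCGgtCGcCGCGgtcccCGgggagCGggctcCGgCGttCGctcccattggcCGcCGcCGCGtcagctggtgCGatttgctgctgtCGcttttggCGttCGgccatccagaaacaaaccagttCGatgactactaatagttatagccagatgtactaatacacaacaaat
HOXD1, chr2:177053146-177053395, plus strand: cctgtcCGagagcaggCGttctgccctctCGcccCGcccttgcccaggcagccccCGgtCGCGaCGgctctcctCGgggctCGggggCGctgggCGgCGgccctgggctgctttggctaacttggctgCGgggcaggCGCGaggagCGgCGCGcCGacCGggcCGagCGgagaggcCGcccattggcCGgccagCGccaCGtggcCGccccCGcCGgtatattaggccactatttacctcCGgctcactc

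The stretches before HOXD10 and HOXD11 both hold 23 CpGs and lie within 10 kb of each other, and their levels were at opposite ends of the scale. In the HOXD10 stretch mCG was 97.9% and 98.3% in WT and 95.1% and 94.4% in ZNF274KO (the library numbered 1 first). In the HOXD11 stretch no methylated cytosine was seen in any library. The base calls numbered 271 and 254 in WT and 125 and 216 in ZNF274KO, which allows levels up to 1.11%, 1.18%, 2.40% and 1.39%. These limits are 3 counts of the total, cover counting error only and are too low where a read spans several CpGs. The HOXA6 stretch, with 27 CpGs, varied most between libraries, at 22.9% and 0.592% in WT 1 and WT 2 and at 58.6% and 30.8% in ZNF274KO 1 and ZNF274KO 2. The HOXD1 stretch has 31 CpGs and was low in every library, at 0.608%, 8.90%, 7.59% and 1.34%, although the promoter as a whole was not.

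In WT cells the 4 clusters were less methylated than the DNA around them. HOXA had the lowest level at 44.1% ± 2.40 (SD, n = 2), followed by HOXC at 55.8% ± 1.82, HOXB at 59.1% ± 1.46 and HOXD at 61.3% ± 1.21, against 59.8% ± 0.819 over the genome. WT 1 and WT 2 were at 60.1% and 58.1% in HOXB and at 62.2% and 60.4% in HOXD. HOXD was thus the higher in both libraries, although HOXD in WT 2 lay close to HOXB in WT 1. The 500 kb on either side of each cluster were at 77.3% ± 0.438 (HOXA), 71.7% ± 0.391 (HOXB), 69.4% ± 0.829 (HOXC) and 73.7% ± 0.483 (HOXD). The lower level of the clusters was thus seen in both WT libraries and in all 4 places.

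Along the clusters, nearly unmethylated and nearly fully methylated stretches lay beside others of intermediate mCG. Of 585 tiles of 1 kb, 579 had at least 20 reads in every library. Among them, 75 had a mean WT level under 10%, 91 were from 10 to 50%, 130 from 50 to 80% and 283 at 80% or more. HOXD was the cluster with the largest share of tiles at 80% or more (58.6%, against 55.5% in HOXB, 46.0% in HOXC and 32.3% in HOXA), and HOXA had the largest share from 10 to 50% (25.4%, against 16.1% in HOXC, 11.96% in HOXB and 11.2% in HOXD).

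**Figure D1:**
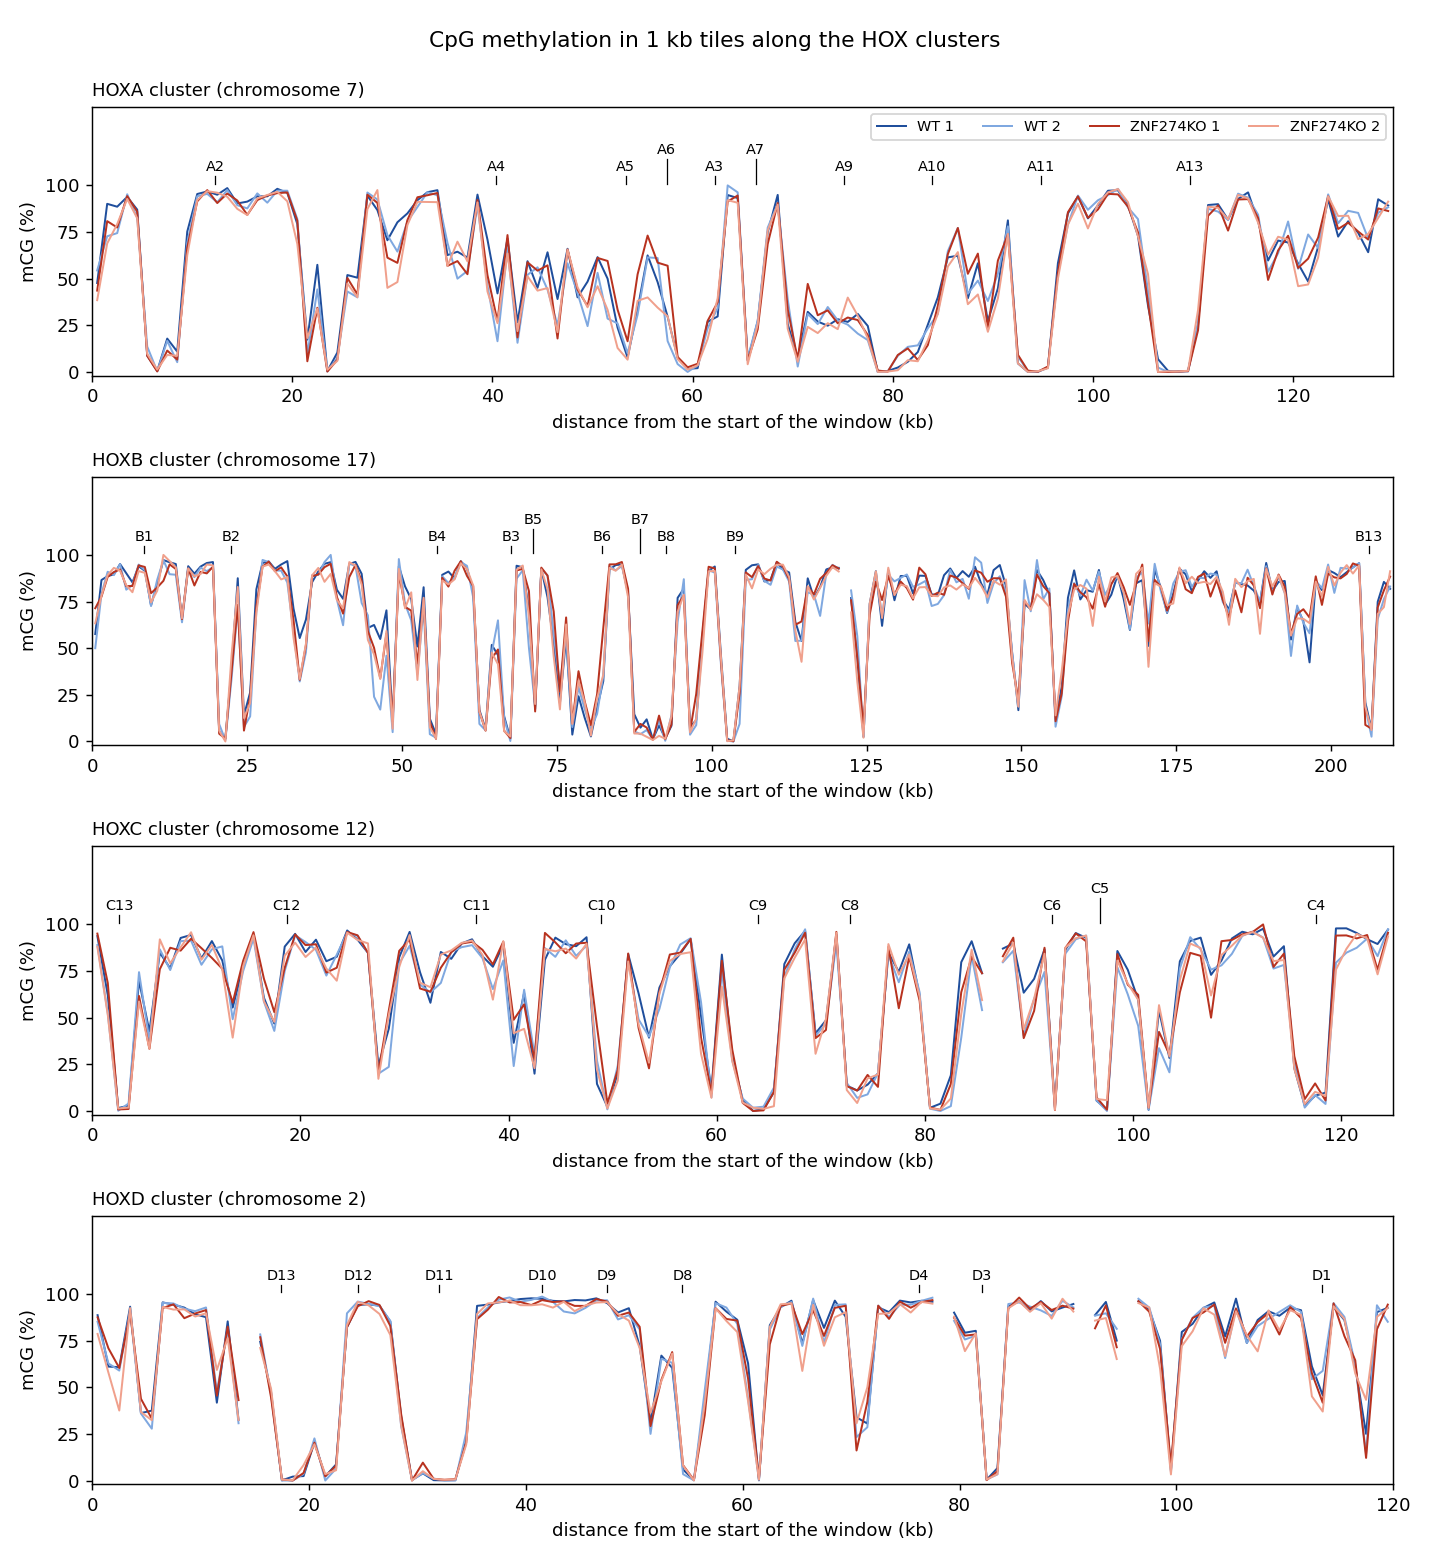
mCG (%) in each 1 kb tile with at least 20 reads in every library (vertical axis) against the distance from the start of the window in kb, with 1 panel per cluster and 1 line per library. Ticks mark the starts of 38 HOX genes, and gaps are tiles with fewer reads. The lines of WT and ZNF274KO follow each other through steep steps, and many tiles of the stretch from A4 to A10 lie between the extremes, beside others near 0% and a few above 80%.

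The steps between methylated and unmethylated DNA were steep. Neighbouring tiles differed by at least 70 points in both WT libraries at 19 places, 1 in HOXA, 7 in HOXB, 6 in HOXC and 5 in HOXD. At 14 of them a tile within 1 kb of the start of a coding gene was on at least 1 side. Such tiles were 124 of the 579 measured, and the share of all neighbouring pairs that hold one was not counted. In both ZNF274KO libraries 17 of the 19 steps were again at least 70 points, and the smallest of all was 67.0 points. At HOXB4 (a central paralog), the step at base 46656000 was 85.5 and 86.5 points in WT 1 and WT 2 and 86.3 and 84.6 points in ZNF274KO 1 and ZNF274KO 2. These places were chosen on WT levels, so the values in ZNF274KO are a description.

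Low runs, in which at least 3 neighbouring tiles were under 10% in both WT libraries, numbered 4 in HOXA, 2 in HOXC, 2 in HOXD and 0 in HOXB. The longest, with 5 kb and 341 CpGs (chr2:176969001-176974000), held the start of HOXD11, a posterior gene that acts with its paralogs in kidney and forearm development. Its level was 0.561% and 0.738% in WT 1 and WT 2 and 1.65% and 0.930% in ZNF274KO 1 and ZNF274KO 2. The other low run of HOXD (3 kb, chr2:176957001-176960000) held the start of HOXD13, a gene of digit formation, at 0.934%, 0.388%, 0.779% and 1.05% in that order. In HOXA the longest were 4 kb each and held the starts of HOXA11 (chr7:27222001-27226000, 1.11% to 2.23% over the 4 libraries) and HOXA13 (chr7:27236001-27240000, 0.310% to 0.647%). In HOXC both were 3 kb, with the starts of HOXC9 (chr12:54392001-54395000, 0.686% to 2.53%) and HOXC4 (chr12:54446001-54449000, 5.36% to 9.49%). Of these 6 named runs, 5 held the start of a posterior gene and 1 that of a central gene. The low runs not named held no start of a canonical coding transcript. The annotated 5′ end of the central gene HOXA6 (base 27190222), upstream of its canonical start, lay in 1 of them. Posterior genes are 16 of the 39 HOX genes and central genes 15. Within 1 kb of the start, 7 of the 16 posterior genes and 6 of the 15 central genes had a mean WT level under 10%.

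High runs, with at least 3 neighbouring tiles at 80% or more in both WT libraries, took up 26 kb of HOXA, 68 kb of HOXB, 28 kb of HOXC and 52 kb of HOXD. The longest was a block of 15 kb with 576 CpGs in HOXD (chr2:176975001-176990000), which begins 1 kb after the low run of HOXD11 and holds the starts of HOXD10 and HOXD9. It was at 95.6% and 94.3% in WT and at 94.6% and 93.8% in ZNF274KO. The second in HOXD covered 7 kb (chr2:177024001-177031000, 93.7% to 94.0% over the 4 libraries) downstream of the HOXD3 start. In HOXA the longest was 10 kb with the start of HOXA2, a gene of the hindbrain and pharyngeal arches (chr7:27140001-27150000, 93.7% to 95.4%). The next were 6 kb each. The first of these lay between the starts of HOXA11 and HOXA13 and reached into the last exon of HOXA13 (chr7:27228001-27234000, 92.8% to 94.4%). The other lay past HOXA13 (chr7:27241001-27247000, 89.4% to 91.6%).

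In HOXB the longest high run was 8 kb just upstream of HOXB9 (chr17:46705001-46713000, 89.95% to 92.1%), followed by 2 runs of 7 kb. The first of these held the start of HOXB1, a gene of the hindbrain (chr17:46602001-46609000, 89.5% to 92.3%). The second lay in the long gap between HOXB9 and HOXB13 (chr17:46775001-46782000, 86.0% to 89.0%). That gap, 100.4 kb between the 2 promoters, was methylated for most of its length, with 68 of its 99 tiles at 80% or more. Its level was 76.7% and 76.1% in WT and 77.4% and 74.8% in ZNF274KO. In HOXC the longest high runs were 5 kb each, between HOXC11 and HOXC10 (chr12:54373001-54378000, 86.0% to 90.5%) and past HOXC4 (chr12:54450001-54455000, 88.4% to 94.6%).

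The central part of HOXA, from HOXA4 to HOXA10, held many intermediate tiles. Over 45.56 kb and 1983 CpGs it was at 30.7% and 27.2% in WT and at 30.3% and 25.5% in ZNF274KO, and of its 44 tiles 22 were from 10 to 50%, 10 under 10% and 3 at 80% or more. Both low runs of HOXA not named above lie in it (chr7:27188001-27191000 and chr7:27208001-27211000, 3 kb each). An intermediate tile can be a mix of methylated and unmethylated CpGs or be made of CpGs that are intermediate themselves. In the 43 HOXA tiles between 20 and 60%, 1013 of 1508 CpGs with at least 10 reads in WT were themselves from 20 to 80% (67.2%), and in the 26 such tiles of HOXB 400 of 596 (67.1%). In HOXC the share was 36.8% over 24 tiles and in HOXD 24.9% over 16 tiles, and in both CpGs under 20% were the most frequent (39.8% and 46.4%). Reads of WT 1 and WT 2 were pooled for these shares, and whether the alleles or the cells differ was not tested.

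CpG density went with methylation only loosely. Over the 579 tiles the Spearman correlation between WT level and the number of CpGs in the reference was -0.138, and it was -0.267 in HOXA, -0.131 in HOXB, -0.165 in HOXC and 0.0319 in HOXD, as a description over tiles that share libraries and neighbours. Tiles under 10% had a median of 50 CpGs and an observed over expected CpG ratio of 0.636, and those at 80% or more had 17 CpGs and 0.309. Yet of the 112 tiles with 50 or more CpGs, the density of a CpG island, 38 were under 10% and 45 at 80% or more. In percent these are 33.9% and 40.2%, against 42.2% and 31.2% of the 29641 tiles of that density in the rest of the genome. Of the 266 HOX tiles with under 20 CpGs that could be tested, 53.4% were at 80% or more, against 30.5% of other tiles of that density. Of the 185 with 20 to 49 CpGs it was the other way, with 47.0% at 80% or more against 58.6%, and 15.7% under 10% against 3.23%.

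**Figure D2:**
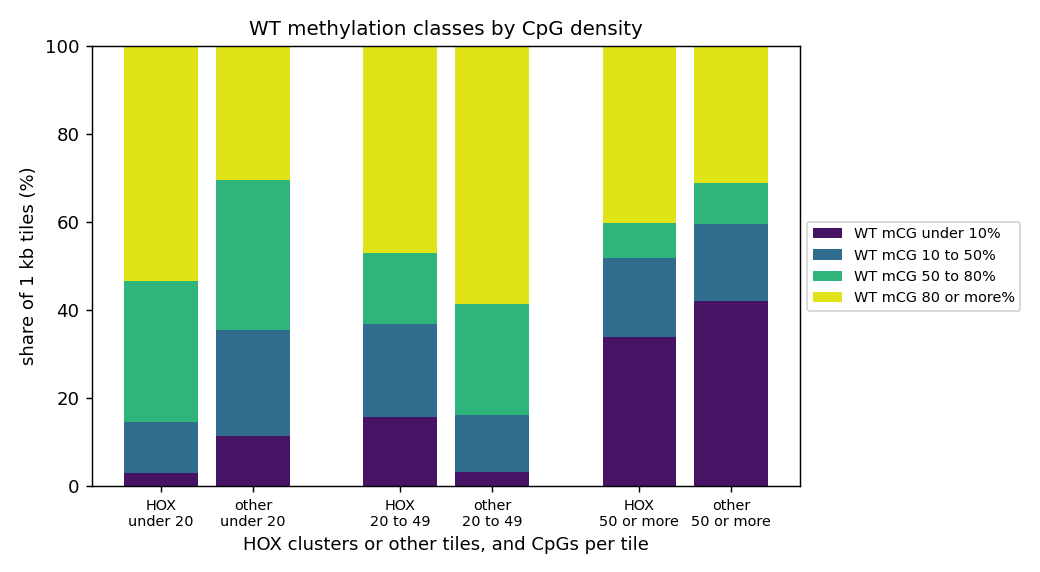
Share of 1 kb tiles (%, vertical axis) in 4 classes of mean WT mCG, for tested tiles of the HOX clusters and all other tested tiles, in 3 classes of CpGs per tile. Among tiles with 50 or more CpGs, 40.2% of HOX tiles and 31.2% of other tiles were at 80% or more.

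Tiles by annotation differed in the same loose way. Of 124 tiles within 1 kb of a coding start, 42 were under 10% and 41 at 80% or more. Of 145 further tiles that touch an exon, 15 were under 10% and 77 at 80% or more, and of 231 tiles in introns 15 and 118. The 79 intergenic tiles held 3 under 10% and 47 at 80% or more.

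All 39 HOX genes had a measured promoter, taken as 1 kb on either side of the start of the canonical transcript, with 35 to 219 CpGs and 350 to 2948 reads per library. Promoters with mean WT mCG under 10% numbered 14, another 16 were from 10 to 50%, 1 was from 50 to 80% and 8 were at 80% or more. Of the 36 with 50 or more CpGs, 22.2% were at 80% or more, against 8.87% of 14890 other coding promoters of that density. The widest 95% Wilson interval of any promoter level was ± 4.66 points, which covers counting error only and is too narrow where a read spans several CpGs.

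**Figure D3:**
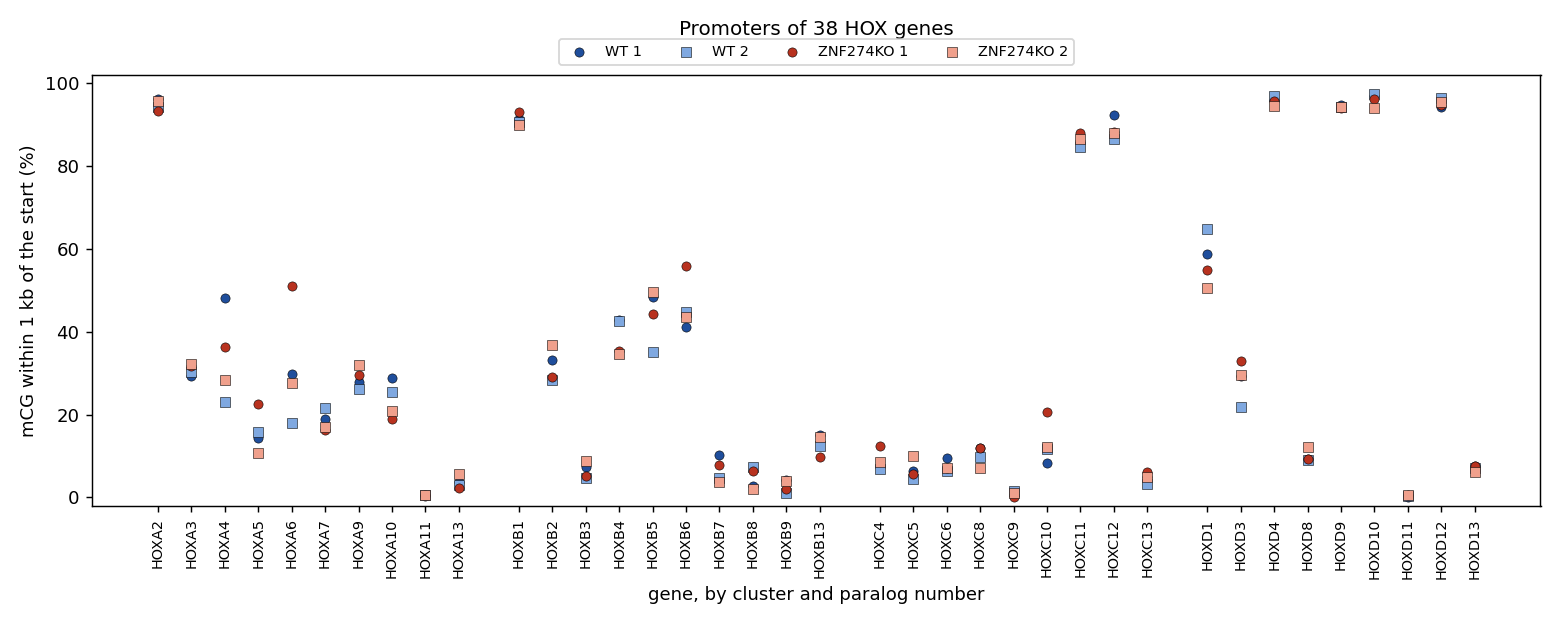
mCG (%) within 1 kb of the start (vertical axis) for 38 HOX genes, ordered by cluster and paralog number, with 1 point per library. Promoters of HOXD4, HOXD9, HOXD10 and HOXD12 lie above 93% in all 4 libraries and that of HOXD11 under 1%, and the points of HOXA4 and HOXA6 are far apart within a group.

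Anterior genes (paralog groups 1 to 3), which act in the hindbrain and neck, spanned nearly the whole scale, with 8 promoters from 5.95% (HOXB3) to 95.1% (HOXA2) and a median of 30.3%. HOXD1 was at 58.6% and 64.9% in WT 1 and WT 2 and its paralog HOXB1 at 91.4% and 90.6%, so HOXB1 was the higher in both libraries. HOXB2 was at 33.1% and 28.4% while its paralog HOXA2 was at 96.1% and 94.2%. In group 3, HOXB3 was at 7.32% and 4.57%, HOXD3 at 29.2% and 21.8% and HOXA3 at 29.2% and 30.3%, and the last pair did not differ beyond the spread between libraries. The canonical start of HOXA3 lies at base 27192202, between HOXA6 and HOXA7, and that of HOXB3 at 46667603, past HOXB4, so these promoters are far from the last exons of their genes.

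Central genes (groups 4 to 8), of the trunk, were mostly low or intermediate, with a median of 15.0%. Of the 15, 6 were under 10%, 8 from 10 to 50% and 1, HOXD4, at 95.9% and 96.9% in WT 1 and WT 2. The other members of group 4 were HOXC4 at 7.21% and 6.83%, HOXB4 at 42.7% and 42.5% and HOXA4 at 48.2% and 23.0%, so HOXA4 and HOXB4 could not be ordered. Group 8 was low throughout, with mean WT levels from 4.99% (HOXB8) through 9.15% (HOXD8) to 10.9% (HOXC8). Group 5 ran from 5.46% (HOXC5) to 41.7% (HOXB5), group 6 from 7.97% (HOXC6) to 42.9% (HOXB6) and group 7 from 7.48% (HOXB7) to 20.3% (HOXA7), with the HOXC or HOXB member lowest each time.

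Posterior genes (groups 9 to 13), of the lower trunk, limbs and urogenital tract, were spread over the scale, with 7 of 16 promoters under 10%, 5 at 80% or more and 4 from 10 to 50%. In group 11, HOXD11 was at 0.106% and 0.408% and HOXA11 at 0.330% and 0.623% in WT 1 and WT 2, while HOXC11 was at 86.1% and 84.7%. In group 9, HOXC9 was at 0.559% and 1.57%, HOXB9 at 4.16% and 1.04%, HOXA9, known for its part in blood cell growth, at 27.96% and 26.2%, and HOXD9 at 94.6% and 94.2%. In group 10, HOXC10 was at 8.33% and 11.7%, HOXA10, a gene of the uterus, at 28.9% and 25.5% and HOXD10 at 97.0% and 97.4%. Both members of group 12 were high, HOXC12 at 92.3% and 86.5% and HOXD12 at 94.3% and 96.4%. The 4 members of group 13 were low, from 3.32% (HOXA13) through 4.06% (HOXC13) and 7.33% (HOXD13) to 13.7% (HOXB13, a gene of the prostate).

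Within promoters the methylated part often lay on either the upstream or the downstream side. When the 2 kb were split into 4 parts, HOXD3 went from a mean WT level of 96.7% at 500 to 1000 bases before the start to 1.06% in the 500 bases after it, HOXB4 from 90.03% to 0.411%, and HOXC10 from 80.9% to 1.35%. HOXD1 dipped to 10.05% in the 500 bases before its start and was at 97.0% from 500 bases after it. Their intermediate promoter levels are thus averages over separate stretches. At HOXA9 all 4 parts were between 19.1% and 29.7% in WT, and 122 of its 162 CpGs with at least 10 reads in WT were themselves from 20 to 80%.

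**Figure D4:**
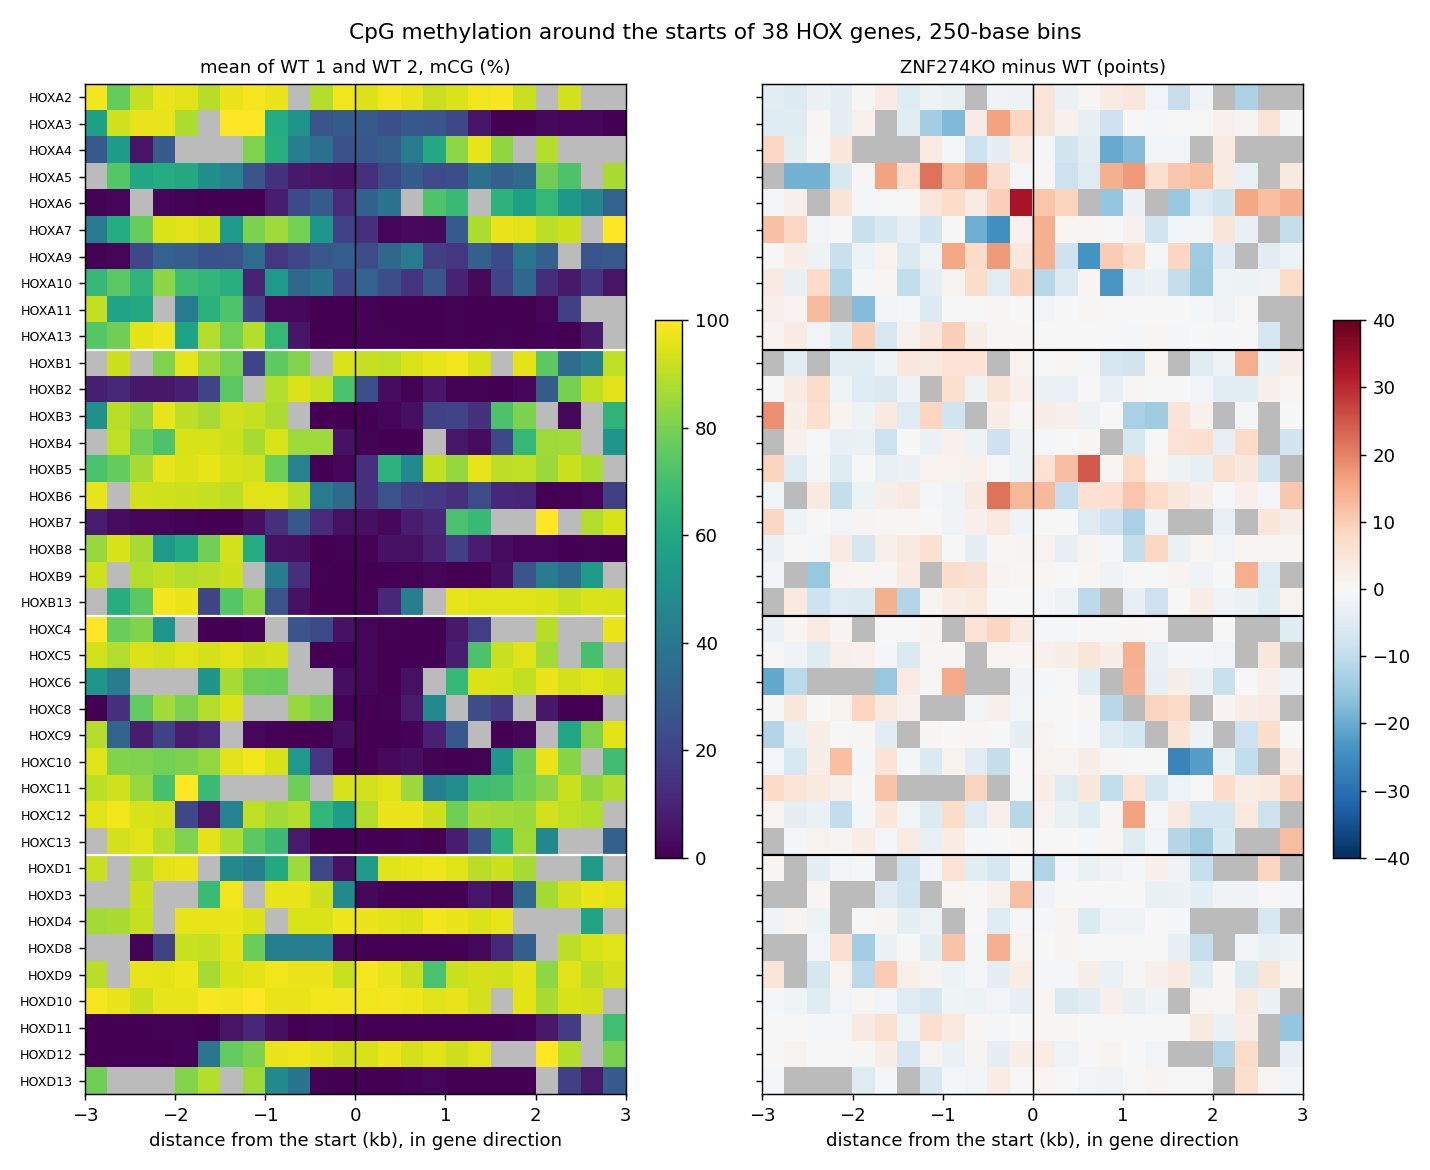
Mean WT mCG (left, %) and ZNF274KO minus WT (right, percentage points) in bins of 250 bases from 3 kb before to 3 kb after the start of 38 HOX genes, in gene direction. Bins with under 10 reads in a library are grey. Low bins surround most starts while HOXA2, HOXB1, HOXC11, HOXC12, HOXD4, HOXD9, HOXD10 and HOXD12 are above 80% in the first bin after it, and the bin just before the HOXA6 start is the darkest of the right panel.

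The first and last exons of the canonical transcripts differed in WT. In nearly all HOX genes the last exon holds the homeobox, the part that encodes the DNA-binding homeodomain. First exons had a median of 7.06%, with 20 of 39 under 10% and 9 at 80% or more, and last exons a median of 86.2%, with 5 under 10% and 21 at 80% or more. The last exon was higher than the first in 28 of 39 genes, and by over 50 points in 15. HOXC13, a gene of hair and nail, was at 0.283% in the first exon and 93.4% in the last, whereas HOXB8 was at 6.81% and 1.14% and HOXD11 at 0.0794% and 4.22%.

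Starts of noncoding genes in the clusters also ranged from nearly unmethylated to nearly fully methylated. HOTTIP, a long noncoding RNA, was at 87.8% and 83.9% in WT 1 and WT 2 within 1 kb of its canonical start, which lies past HOXA13. Its annotated gene span also reaches the tile chr7:27238001-27239000, which was at 0% and 0.458%, so the level depends on the start taken. HOTAIR, in HOXC, was at 80.02% and 68.6%. Of the microRNAs, the start of MIR196B was at 0.324% and 0.255%, while MIR196A1 was at 93.6% and 91.7%, MIR196A2 at 81.6% and 80.7% and MIR10B, between HOXD4 and HOXD8, at 96.1% and 94.4%. EVX2, a homeobox gene at the end of HOXD, was at 92.1% and 92.6%, and PRAC1 and PRAC2, between HOXB9 and HOXB13, were at 91.0% and 87.4% and at 90.3% and 90.2%.

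The comparison of ZNF274KO with WT asked whether loss of ZNF274 altered these patterns. No cluster differed beyond the spread between libraries. HOXA was at 45.8% and 42.4% in WT 1 and WT 2 and at 44.2% and 40.6% in ZNF274KO 1 and ZNF274KO 2, a difference of -1.66 points. HOXB differed by -0.379, HOXC by -0.778 and HOXD by -1.59 points, and over the genome the difference was -0.541. The 500 kb on either side differed by -0.867 (HOXA), -1.56 (HOXB), -0.904 (HOXC) and -1.37 points (HOXD). Beside HOXB and HOXD both ZNF274KO libraries were below both WT libraries, and beside HOXA and HOXC the groups overlapped. In every cluster the libraries of the groups overlapped, and each exact permutation test gave p = 0.667 (two-sided, n = 2 and 2, also 0.667 after adjustment over the 4 clusters, where the smallest value that this design can give is 0.3333).

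HOXD carried fewer reads in the knockout. Relative to the mean depth per CpG of each library, it stood at 1.11 in WT and 0.934 in ZNF274KO, a ratio of 0.841, and its flanks had a ratio of 0.816. Chromosome 2 as a whole had a ratio of 0.924, while HOXA, HOXB and HOXC had ratios from 1.03 to 1.06. The part of depth in the levels of HOXD was not tested.

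By CpG density the result was the same. Tiles with under 20 CpGs were at 72.9% ± 1.83 in WT and 71.4% ± 0.709 in ZNF274KO (SD, n = 2), those with 20 to 49 CpGs at 59.2% ± 1.98 and 58.0% ± 2.004, and those with 50 or more at 44.4% ± 1.22 and 42.8% ± 1.37. The groups overlapped in each class, with p = 0.667 in each exact permutation test and after adjustment over the 3 classes.

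Tile by tile, no part of the clusters passed the test. Of 563 HOX tiles tested with edgeR's quasi-likelihood test, 0 were called at an adjusted p under 0.05, against 0.357% of the 2001372 tiles of the genome, and the lowest adjusted p was 0.211. At an unadjusted p under 0.05, 41 HOX tiles were lower in ZNF274KO (7.28%, against 3.24% of all tiles) and 19 higher (3.37%, against 3.18%). Which direction was the more frequent depended on single libraries. It was lower without WT 2 or without ZNF274KO 1, and higher without WT 1 or without ZNF274KO 2. With all libraries, the lower tiles were 7.14% of HOX tiles with under 20 CpGs (3.0% of other tiles), 7.03% of those with 20 to 49 (4.45%) and 8.04% of those with 50 or more (7.64%). The higher tiles were 1.13% of HOX tiles with under 20 CpGs (3.25% of other tiles), 3.78% of those with 20 to 49 (2.5%) and 8.04% of those with 50 or more (4.53%). The limma fit on log2 ratios also called 0, against 0.143% of all tiles. At an unadjusted p under 0.05 it had 25 lower and 8 higher HOX tiles. Both directions together were 5.86% of HOX tiles with limma, against 6.46% of all tiles. With edgeR they were 10.7%, against 6.42%, so the higher share in HOX tiles was not seen with limma. With a library left out, edgeR called 6 HOX tiles without WT 1 (1.07%, against 0.557% of all tiles), 1 without WT 2 (0.178%, against 0.433%), 1 without ZNF274KO 1 (0.178%, against 0.168%) and 5 without ZNF274KO 2 (0.888%, against 0.628%). In these fits 1 group is a single library, which is assumed to vary like the other group, here and in all values below with a library left out. In 127 tiles (22.6%) both ZNF274KO libraries were below both WT libraries, against 19.9% of all tiles, and in 68 (12.1%) both were above, against 15.1%. The median difference was -0.791 points in HOX tiles and -0.511 in the other tiles of the genome.

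Single libraries of one group lay about as far apart as those of different groups. The median gap between WT 1 and WT 2 was 3.20 points over the HOX tiles and that between ZNF274KO 1 and ZNF274KO 2 was 2.99, while the 4 pairs of a WT and a ZNF274KO library had median gaps from 2.98 to 3.42 points. The group means, which vary less than single libraries, differed by a median of 2.38 points. WT 1 and WT 2 differed by at least 20 points in 14 tiles, 5 in HOXA, 5 in HOXB, 4 in HOXC and 0 in HOXD. ZNF274KO 1 and ZNF274KO 2 did so in 13, and the 4 pairs across the groups in 10 to 14. The widest gap was in the HOXC6 and HOXC4 gene spans (chr12:54413001-54414000), with 79.8% in WT 1 and 39.3% in WT 2, and ZNF274KO 1 and ZNF274KO 2 lay between them at 63.7% and 52.0%. In 3 neighbouring tiles of the HOXB3 gene span (chr17:46645001-46648000) WT 1 was at 62.4%, 54.9% and 70.3% and WT 2 at 23.96%, 17.1% and 46.0%, again with both ZNF274KO libraries between.

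**Figure D5:**
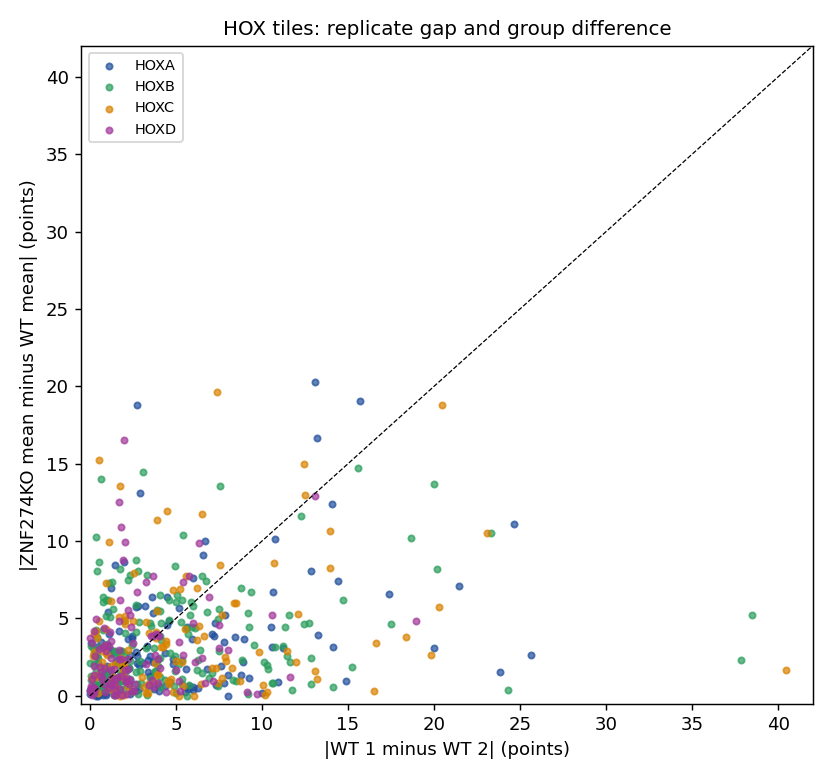
Absolute difference between the means of ZNF274KO and WT (vertical axis, percentage points) against the absolute gap between WT 1 and WT 2 (horizontal axis, percentage points) for the 563 tested HOX tiles, coloured by cluster, with the line of equality dashed. In 14 tiles the gap between WT libraries is at least 20 points, and in 1 tile the difference between the group means is. A mean of 2 libraries varies less than 1 library, so points under the line are frequent without any change.

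The tiles with the largest differences are given as a description, from the 90 tiles with at least 20 CpGs in which the groups did not overlap. The largest negative difference was -19.6 points, in a tile that touches an exon of the antisense RNA HOXC-AS2 (chr12:54388001-54389000, 73 CpGs). The tile lies between the canonical starts of HOXC10 and HOXC9, in the HOXC6 gene span, and holds the annotated 5′ end of the HOXC9 gene. It was at 50.8% and 58.2% in WT and at 39.2% and 30.6% in ZNF274KO, with an adjusted p of 0.211 in edgeR's quasi-likelihood test. The next was in the last exon of HOXC10 (chr12:54383001-54384000, 29 CpGs), at 39.3% and 39.8% in WT and 22.8% and 25.9% in ZNF274KO, with an adjusted p of 0.352. The others were at the HOXD1 start (chr2:177053001-177054000, -12.9 points), in the HOXA10 gene span (chr7:27219001-27220000, -10.1 points) and at the HOXA10 start (chr7:27213001-27214000, -8.66 points), with adjusted p from 0.717 to 0.750. Without WT 1 the HOXC-AS2 tile differed by -23.3 points. Without WT 2 the tile at the HOXD1 start differed by -6.35 points and that in the HOXA10 span by -4.76, and without WT 1 by -19.4 and -15.5. With each library left out in turn, the tile in the last exon of HOXC10 stayed between -16.7 and -13.7 points. That at the HOXA10 start stayed between -9.96 and -7.36.

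Among positive differences the largest was 20.3 points at the HOXA6 start (chr7:27187001-27188000, 69 CpGs). Levels were 29.6% and 16.5% in WT 1 and WT 2 and 56.9% and 29.8% in ZNF274KO 1 and ZNF274KO 2, so ZNF274KO 2 lay next to WT 1, and the adjusted p in edgeR's quasi-likelihood test was 0.518. The difference was 6.75 points without ZNF274KO 1, 33.8 without ZNF274KO 2 and 26.8 without WT 1, each with 1 group as a single library. With a replicate block the tile was called (20.3 points, edgeR adjusted p = 0.0293). Whether the replicate numbers pair the libraries is not given by the labels. The others were in the last exon of HOXC11 (chr12:54370001-54371000, 15.0 points), between HOXB9 and HOXB13 (chr17:46796001-46797000, 14.7 points), next to the HOXA5 start (chr7:27184001-27185000, 13.1 points) and in the HOXB7 gene span (chr17:46697001-46698000, 8.79 points), with adjusted p from 0.613 to 0.703. Single libraries weighed on these too. Without ZNF274KO 1 the tile next to HOXA5 differed by 5.96 points and that in HOXB7 by 2.17. Without ZNF274KO 2 they differed by 20.2 and 15.4 points. The tile between HOXB9 and HOXB13 went to 6.96 points without WT 1 and 22.5 without WT 2, and that in HOXC11 to 8.77 without WT 2.

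Of the 39 HOX promoters, 0 were called in the same test over 19740 coding promoters, against 0.122% of all promoters, and 0 had an unadjusted p under 0.05, against 6.05%. With a library left out, some had one. With all libraries, 2 had one when centred on the genome-wide level (5.13%, against 6.07% of all promoters) and 2 with a replicate block (5.13%, against 7.62%). Taking 500 bases either side of the start gave 2 (5.13%, against 6.2%). The 5′ end of the gene as start gave 3 (7.69%, against 6.2%), and a negative binomial dispersion of 0 gave 3 (7.69%, against 6.33%). The other alternatives with all libraries gave 0. Differences were positive in 20 and negative in 19, with a median of 0.108 points, and 22 were within 2 points. In 8 promoters both ZNF274KO libraries were above both WT libraries and in 7 both were below, which is 20.5% and 17.9% of the 39, against 14.4% and 20.3% of all promoters.

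The HOXA6 promoter had the largest difference, 15.3 points, at 29.8% and 18.0% in WT 1 and WT 2 and 50.9% and 27.5% in ZNF274KO 1 and ZNF274KO 2, with an adjusted p of 0.835. The groups overlapped there, and the difference lay mostly in ZNF274KO 1. It was 3.63 points without ZNF274KO 1, 27.1 without ZNF274KO 2 and 9.44 without WT 2, and 2.11 points with the 5′ end of the gene as its start. The largest negative difference was that of HOXD1, -9.07 points, at 58.6% and 64.9% in WT and 54.9% and 50.5% in ZNF274KO, with an adjusted p of 0.874. The groups did not overlap over the whole promoter, but in the printed 250 bases just before the start they did. Without WT 2 the difference was -5.94 points. Of the other promoters in which the groups did not overlap, HOXB4 differed by -7.65, HOXA10 by -7.32, HOXC10 by 6.34 and HOXD3 by 5.71 points. HOXC10 went to 2.16 points without ZNF274KO 1 and 10.5 without ZNF274KO 2, and HOXD3 to 1.99 without WT 2 and 9.43 without WT 1. With each library left out in turn, HOXB4 stayed between -7.97 and -7.33 points and HOXA10 between -9.02 and -5.62. HOXB4 was at 42.7% and 42.5% in WT and at 35.3% and 34.6% in ZNF274KO. Its 4 parts were at 90.03%, 44.7%, 0.411% and 0% in WT and 89.7%, 38.1%, 0.0956% and 0.379% in ZNF274KO. The first, upstream part held 427 of 1117 and 415 of 1055 reads in WT, against 389 of 1217 and 360 of 1222 in ZNF274KO. The 4 parts of HOXC10 were at 80.9%, 3.70%, 1.35% and 2.01% in WT and 81.6%, 0.721%, 2.53% and 3.57% in ZNF274KO. Each part thus moved by less than the 6.34 points of the whole HOXC10 promoter. Its upstream, methylated part held a larger share of the reads in both ZNF274KO libraries than in either WT library. A promoter level is summed over reads, so it also moves with where reads fall. The share of this in these differences was not tested. Among noncoding starts, which were not tested, the largest differences were 10.02 points at the microRNA MIR615, near the HOXC5 start (37.7% and 29.9% in WT, 42.8% and 44.8% in ZNF274KO), and -9.30 points at HAGLR, which starts beside HOXD1 and shares much of its promoter. Without WT 2 they were 6.12 and -6.36 points, and without WT 1 13.9 and -12.2.

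By section of the body axis, differences ranged from -9.07 to 5.71 points over the 8 anterior promoters, from -7.65 to 15.3 over the 15 central ones and from -7.32 to 6.34 over the 16 posterior ones, with medians of 0.759, -0.754 and -0.0546. The 8 promoters at 80% or more in WT differed by -2.09 to 1.94 points. The last exons of the 39 genes differed by a median of -0.929 points and their first exons by 0.032.

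Genes that act with or on HOX genes were taken as a fixed list of 40, all of them measured. Of the 10 ParaHox, EVX and MEOX genes, relatives of the HOX genes, 5 promoters were at 80% or more in WT and 1 (CDX2, at 7.57% and 7.40%) was under 10%. Of the 9 genes for the PBX, MEIS and PKNOX proteins, which bind DNA together with HOX proteins, 6 were under 10%, as were 13 of 15 Polycomb genes and all 6 genes of the Trithorax and CTCF list. None of the 40 promoters was called, against the 0.122% of all promoters given above, and 2 had an unadjusted p under 0.05, MEIS1 and PKNOX2, both higher, against 6.05% of all promoters in either direction. PKNOX2 was at 0.919% and 0.818% in WT and 1.46% and 2.43% in ZNF274KO (edgeR adjusted p = 0.786), and MEIS1 at 0 in the first 3 libraries and 0.726% in ZNF274KO 2 (edgeR adjusted p = 0.825). The largest difference of the list, -9.10 points, was at PBX4, with 36.0% and 33.5% in WT and 23.6% and 27.7% in ZNF274KO (edgeR adjusted p = 0.852).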

How the data were processed

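The labels give 4 EM-seq libraries of HEK293T cells, 2 of them WT and 2 ZNF274KO. Per the methods, the authors processed reads with Msuite2 on hg19, with hisat2 as mapper, and deposited counts of each base call per CpG and strand for each library, neither pooled nor normalised. Filters on duplicates and mapping quality are not given in the sources used here, and repeated reads would make the counts look more precise than they are.

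Counts of both strands were added at each CpG, C as methylated and T as unmethylated, and summed over 1 kb tiles, promoters, exons and clusters. Minimums of reads for tiles and promoters apply to these sums of base calls, not to separate reads. Coordinates are 1-based in GRCh37, with genes from GENCODE mapped to that build. Tiles and promoters of autosomes and X with at least 20 reads and 5 CpGs in every library were tested together in R 4.3.3 by edgeR 4.0.16 (glmQLFTest), in a model with library coefficients, the log-odds of methylation and their group difference, and 1 common dispersion from 10000 regions, and with Benjamini-Hochberg adjustment over the genome. A negative variance from rounding was set to 0 in the fit. The model was tested on simulated data. Clusters and density classes were compared by exact permutation. Alternatives are named in the closing section, with limma 3.58.1 on log2 ratios (pseudocount of 1) among them. Python 3.11.15, numpy 2.4.6, pandas 2.3.3 and scipy 1.17.1 were used.

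Members, gene lists and the rules for naming were chosen with earlier results of these data known. Named were 38 of the 39 HOX genes (1 is not reported here), the 2 longest low and 2 longest high runs of each cluster, up to 10 called tiles in each direction, and, with fewer than 5 called, the 5 largest differences each way among tiles with at least 20 CpGs and no overlap between the groups. Promoter sequences are printed for the highest and lowest WT levels and the largest differences, without the 50 bases after the start that the rule had included. Noncoding genes, exons, steps and the span from HOXA4 to HOXA10 were chosen after values were seen.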

Additional observations from a re-analysis of the deposited data

How the results depend on the processing

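No HOX promoter was called under any of the alternatives, which were minimums of 10 and 50 reads, legacy deviances, limma, the genome-wide level subtracted, a replicate block, very deep CpGs (over 5 times the median) dropped, 500 bases either side of the start, the 5′ end of the gene, a negative binomial dispersion of 0 (chosen after seeing the data) and each library left out. With limma, and with 500 bases either side, 0 promoters were called in the whole genome, so these 2 say nothing about HOX. HOX tiles called numbered 0 in the report, 1 with a replicate block (at the HOXA6 start, 0.178% against 0.416% of all tiles), 1 with a dispersion of 0 (at HOXC-AS2, against 0.374%) and 1 to 6 when a library was left out, namely 6 when WT 1 was left out, 1 for WT 2, 1 for ZNF274KO 1 and 5 for ZNF274KO 2. The count was 0 under the other alternatives, among them tiles shifted by 500 bases and tiles of 10 kb. The labels do not say whether the replicate numbers pair the libraries. The deviations of same-numbered libraries had a correlation of -0.0452 over all tiles. A correlation over tiles cannot show an offset that tiles share, so it does not settle this. In each cluster library 1 was above library 2 in both groups. A replicate block cannot alter a difference of group means in a layout of 2 by 2, so the values with it equal the others by construction (-1.66, -0.379, -0.778 and -1.59 points in HOXA, HOXB, HOXC and HOXD, and -1.46, -1.12 and -1.63 points in the density classes).

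Leaving out each library moved the difference of HOXA between -3.45 and 0.14 points, HOXB between -1.41 and 0.655, HOXC between -2.46 and 0.901, HOXD between -2.71 and -0.47, tiles with under 20 CpGs between -2.75 and -0.162, with 20 to 49 between -2.54 and 0.298 and with 50 or more between -2.59 and -0.663. Centred on the genome-wide level, HOXB reversed to 0.162 points, and HOXC moved to -0.237, HOXD to -1.05, tiles with under 20 CpGs to -0.915 and with 20 to 49 to -0.578. As an unweighted mean over CpGs with at least 3 reads, tiles with 50 or more CpGs reversed to 0.00455 points, and HOXA moved to -0.617, HOXB to -0.0839, HOXD to -0.746 and tiles with 20 to 49 CpGs to -0.607. With CpGs of at least 5 reads HOXB was at -0.234. The cause was not tested. With 8 to 10 reads per CpG and 2 libraries per group, single CpGs cannot be compared, and a tile or promoter that was not called may still differ, also by more than the gap between replicates.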
